A study of Homo sapiens with 6 samples.

Results

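The genes described here are collagens, laminins, lysyl oxidases and a small set of matrix glycoproteins, which together build and crosslink the extracellular matrix. They were chosen by a rule on symbols, and the choice was made with earlier results of these data known. The rule took symbols of the form COL-number-A-number, LAMA, LAMB or LAMC with a digit, LOX and the LOXL genes, and FN1, SPARC, FBN1, FBN2, HSPG2, NID1 and NID2. It found 55 of the 57773 genes of the count table: 33 collagens, 10 laminins, 5 lysyl oxidases and the 7 others. They were compared by polyA RNA-seq between 3 libraries of wild-type HAP1 cells and 3 libraries of HAP1 cells edited to carry Y226A and F228A in CTCF. HAP1 is a near-haploid human cell line that came from a chronic myeloid leukaemia, and CTCF is the zinc-finger protein that holds cohesin at the anchors of chromatin loops. Both genotypes grew in the same serum-containing medium. The substitutions were introduced with Cas9 and a repair oligonucleotide, followed by puromycin selection of clones. The 3 mutant libraries share a number in their descriptions and are not stated to be separate clones or cultures. The substitutions and the state of an edited clone therefore cannot be told apart, and the p-values reflect only the spread among these 6 libraries, which may be technical.

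Collagens are trimers of alpha chains. Fibrillar collagens such as I, II, III and V form the cables of tissue, collagen IV forms the sheet of the basement membrane, and FACIT collagens sit on the surface of fibrils. Laminins are cross-shaped trimers of an alpha, a beta and a gamma chain that form a second basement membrane network, joined to collagen IV by nidogens and perlecan. Lysyl oxidases oxidise lysine side chains so that collagen and elastin molecules become covalently linked.

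The libraries held 7764009 to 9610028 gene counts, at which 3 counts correspond to 0.312 to 0.386 CPM, the counts scaled to library size. Such limits cover counting error only. Levels are TMM-scaled CPM, and a change is the log2 fold change of mutant over wild type with its standard error (SE). CTCF itself was at 109 ± 3.14 CPM in the wild type and 135 ± 4.12 CPM in the mutant (mean ± SD, n = 3 each). The first principal component of the tested genes separated the genotypes. On the second, which held 10.3% of the variance, wild-type replicate 2 (score -12.2) and mutant replicate 1 (16.9) lay apart from the other libraries of their genotype (5.11 and 6.49 for the wild type, -7.25 and -9.08 for the mutant).

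Of the 55 genes, 36 passed the filter on low counts and were tested in the edgeR fit over all 14835 tested genes. A gene was called at an adjusted p under 0.05. Among the 36, 8 rose, 8 fell and 20 were not called, so 44.4% were called, beside 21.2% of all tested genes. The rises made up 22.2% of the tested members (11.9% of all tested genes rose), and the falls likewise made up 22.2% (9.26% of all tested genes fell). In 17 of the 36 the values of the genotypes were fully separate, with 8 higher and 9 lower in every mutant library. Over all tested genes the groups did not overlap for 35.5%, made up of 19.0% of all tested genes that were higher and 16.5% that were lower. The median change of the 36 was -0.04, and that of all tested genes was -0.001. A called change of at least 2-fold was found in 8 members, and in 3.62% of all tested genes. LAMA3 and COL12A1 passed the filter through the mutant libraries alone and so had to differ. Of the 32 members above the filter's 1.2 CPM in both genotypes, 6 rose and 8 fell, beside 12.2% and 8.19% of the 13749 genes that met the same condition. Without wild-type replicate 2, 6 members rose and 8 fell, and without mutant replicate 1, 8 rose and 10 fell.

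**Figure D1:**
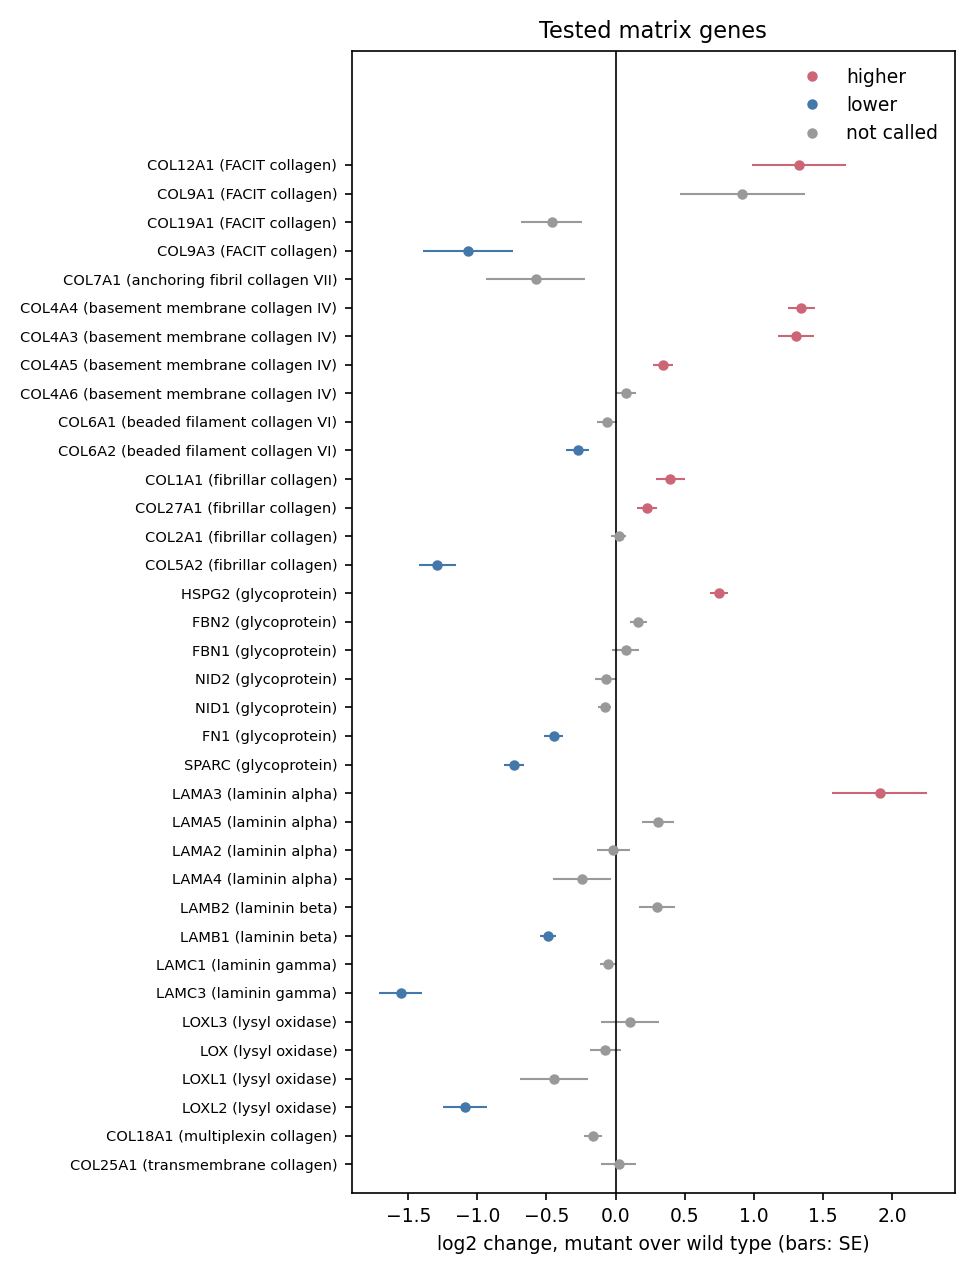
Change of each tested matrix gene, as log2 of mutant over wild type (horizontal axis) with bars of 1 SE, grouped by role, and coloured by the edgeR call. Calls in both directions occur within the laminins, the fibrillar collagens and the glycoproteins, and the 3 called collagen IV genes all lie to the right, from 0.34 to 1.34.

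Summed over the 55 genes, the level was 2691 ± 110 CPM in the wild type and 2717 ± 34.2 CPM in the mutant (mean ± SD, n = 3 each), with overlapping libraries. Most of that sum came from genes that were not called. Per kilobase of exon, the highest wild-type level was that of COL2A1, the collagen of cartilage fibrils, at 90.3 CPM per kb. It was followed by LAMC1 (41.6), NID1 (36.4), COL6A1 (35.3), LAMB1 (25.9) and SPARC (21.0 CPM per kb).

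COL2A1 was at 482, 439 and 458 CPM in the wild-type libraries and at 489, 443 and 468 CPM in the mutant libraries. The 2 groups overlapped, and the change was 0.02 (edgeR adjusted p = 0.816). LAMC1, the gamma chain of most laminins, had 324, 323 and 336 CPM in the wild type and 284, 343 and 319.9 CPM in the mutant. Its mutant libraries spread around the wild-type ones, with a change of -0.06. NID1, a nidogen that bridges laminin and collagen IV, had 212, 210.5 and 218 CPM in the wild type and 202, 204 and 200.4 CPM in the mutant. All 3 mutant libraries lay below the wild type by a small margin, and NID1 was not called (change -0.08, edgeR adjusted p = 0.287). COL6A1, a chain of the beaded filaments of collagen VI, had 158, 136 and 155 CPM in the wild type and 159.5, 135.0 and 135.1 CPM in the mutant. The groups overlapped at a change of -0.06.

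**Figure D2:**
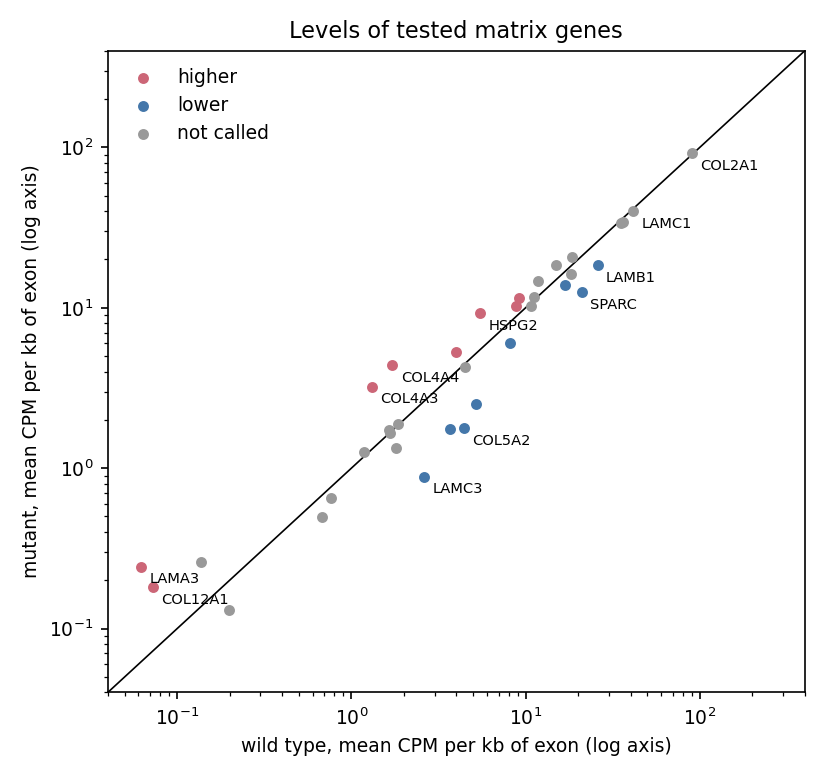
Mean level of the 36 tested genes in the mutant (vertical) against the wild type (horizontal), in CPM per kb of exon on log axes, with the line of equal levels and colours for the edgeR call. COL2A1 (90.3 CPM per kb in the wild type) lies on the line, while LAMA3 and COL12A1 lie above it at the low end of the range.

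Collagen IV transcripts were higher in the mutant. Of its 4 tested chains COL4A3, COL4A4 and COL4A5 rose and COL4A6 was not called. Their chains assemble in fixed combinations: the chains of COL4A3, COL4A4 and COL4A5 form the network of the kidney glomerulus, and those of COL4A5 and COL4A6 another network found in skin and smooth muscle. The chains present in nearly all basement membranes, from COL4A1 and COL4A2, were hardly detected here, with 0 counts and 1 count over all 6 libraries. Collagen IV genes lie in head-to-head pairs. In RefSeq (GRCh38.p14) the starts of COL4A3 and COL4A4 lie 418 bases apart on chromosome 2, those of COL4A5 and COL4A6 lie 379 apart on chromosome X, and those of COL4A1 and COL4A2 lie 126 apart on chromosome 13. Sequences between the RefSeq starts are shown for the pair in which both genes rose and for the pair in which only COL4A5 was called. They are written 5′ to 3′ on the strand of the named gene and contain no annotated exon. An exon that GENCODE v29 gives to COL4A4 lies between the printed COL4A4 and COL4A3 stretches and was left out, so the COL4A4 stretch lies within that gene's GENCODE span. Capitals mark a GC box (GGGCGG or its reverse complement) or a CCAAT box (CCAAT or its reverse complement ATTGG).
COL4A4, chr2:227164237-227164395, minus strand: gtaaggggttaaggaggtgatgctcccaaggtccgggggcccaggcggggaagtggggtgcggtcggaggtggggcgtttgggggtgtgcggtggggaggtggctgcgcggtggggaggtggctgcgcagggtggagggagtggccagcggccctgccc
COL4A3, chr2:227164454-227164564, plus strand: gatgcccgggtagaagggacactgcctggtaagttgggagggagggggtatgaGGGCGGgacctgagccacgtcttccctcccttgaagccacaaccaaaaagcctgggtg
COL4A5, chrX:108439538-108439837, plus strand: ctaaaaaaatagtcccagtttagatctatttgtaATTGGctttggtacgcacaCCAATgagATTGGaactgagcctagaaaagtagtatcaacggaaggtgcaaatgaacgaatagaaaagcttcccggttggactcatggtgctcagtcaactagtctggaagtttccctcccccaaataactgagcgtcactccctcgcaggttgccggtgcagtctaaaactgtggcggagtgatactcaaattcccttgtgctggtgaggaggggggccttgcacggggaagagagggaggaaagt
The COL4A4 stretch held neither box and was 73.0% G and C. The COL4A3 stretch held 1 GC box at 61.3% G and C, and the COL4A5 stretch held 3 CCAAT boxes and no GC box at 48.3%. A match is a description of the letters and not a site.

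COL4A4 was at 17.6, 19.1 and 15.1 CPM in the wild-type libraries and at 41.1, 46.1 and 44.2 CPM in the mutant libraries. Every mutant library lay above every wild-type library, and COL4A4 rose 2.54-fold (change 1.34 ± 0.099, edgeR adjusted p = 1.23e-09). COL4A3 was at 9.87, 8.78 and 13.1 CPM in the wild type and at 28.5, 26.3 and 23.6 CPM in the mutant. It also separated fully and rose 2.47-fold (1.31 ± 0.134, adjusted p = 1.97e-07). The change of the COL4A3 to COL4A4 ratio within a library was -0.03 on the log2 scale (exact two-sided permutation p = 0.90, adjusted p = 1 over 8 such pairs, smallest possible p 0.10). That ratio varied by 0.465 (SD) between wild-type libraries, and its change ran from -0.23 to 0.22 when single libraries were left out, so small differences between the partners were not measurable.

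COL4A5 had 63.6, 76.8 and 73.7 CPM in the wild type and 89.3, 90.6 and 90.4 CPM in the mutant. The mutant libraries lay close together above all wild-type ones, a 1.27-fold rise (0.34 ± 0.072, edgeR adjusted p = 0.00144). Its partner COL4A6 had 77.5, 73.4 and 78.4 CPM in the wild type and 71.5, 84.4 and 85.7 CPM in the mutant, with overlap and a change of 0.08 (adjusted p = 0.528). The COL4A5 to COL4A6 ratio was 0.27 higher in the mutant on the log2 scale (exact permutation p = 0.10, adjusted p = 0.20). Summed collagen IV transcripts ranged from 168 to 180 CPM in the wild-type libraries and from 230.5 to 247 CPM in the mutant libraries. In bulk RNA, more transcript per cell and more cells that express a gene cannot be told apart, here and for all genes that follow.

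**Figure D3:**
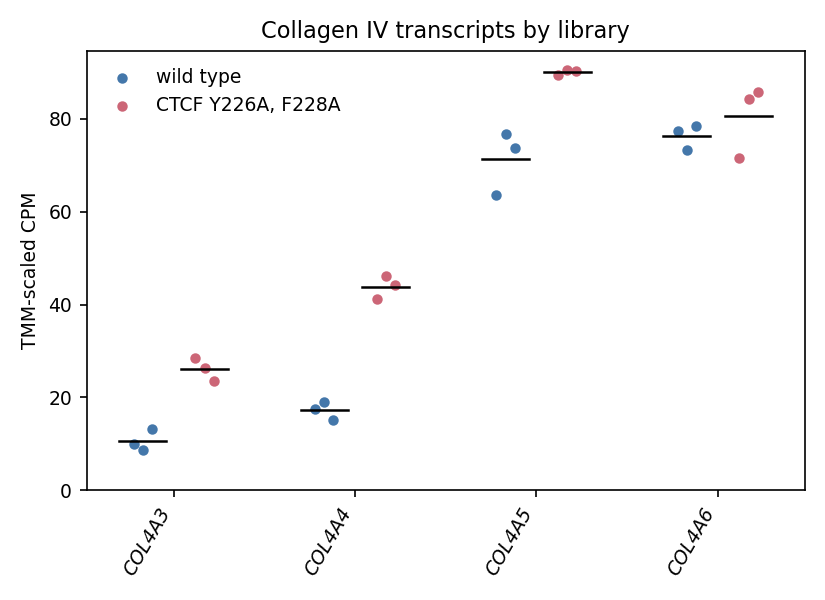
TMM-scaled CPM of the 4 tested collagen IV genes in each library (points, linear axis from 0), with the mean of 3 libraries as a line. COL4A3 and COL4A4 reach 26.1 and 43.8 CPM in the mutant, and COL4A6 overlaps between genotypes.

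Positions in GENCODE v29 on GRCh38 show what lies around this locus. COL4A4 spans 227002711 to 227164453 on the minus strand of chromosome 2 and COL4A3 spans 227164565 to 227314792 on the plus strand. Neighbours here and below were sought among tested protein-coding genes only. The next such gene past COL4A3, at 10.4 kb, is MFF, which encodes a mitochondrial fission factor. MFF rose from 98.4 to 131 CPM (0.41 ± 0.063, edgeR adjusted p = 4.90e-05). On the outer sides, IRS1 at 203 kb from COL4A4 and AGFG1 at 157 kb from COL4A3 were not called, each with a change of -0.04. Exons of COL4A3 overlap those of the antisense gene MFF-DT. The libraries are stranded, but the strand setting of the counting is not given in the sources used here. Exons of HSPG2, COL9A3, SPARC and LOXL2 likewise overlap genes of the opposite strand, so reads of such partners may be included.

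Of the other basement membrane components outside the laminins, HSPG2 rose and the nidogens and COL18A1 were not called. HSPG2 encodes perlecan, the large heparan sulfate proteoglycan of basement membranes. It was at 80.8, 75.4 and 79.4 CPM in the wild type and at 129.9, 141 and 126 CPM in the mutant. No library overlapped, and HSPG2 rose 1.68-fold (0.75 ± 0.064, edgeR adjusted p = 1.20e-08). NID2, the second nidogen, was not called (change -0.07), and the NID1 to NID2 ratio changed by -0.01 (exact permutation p = 1). COL18A1, whose collagen carries the endostatin domain at its end, was 0.16 lower and was not called (edgeR adjusted p = 0.0704). It was called with upper-quartile scaling (adjusted p = 0.0430), with the replicate number as a block (0.029) and without mutant replicate 1 (0.0173).

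Among laminins, an alpha chain rose while a beta and a gamma chain fell. LAMC3 encodes the gamma-3 chain, which is found at fewer sites than that of LAMC1. LAMC3 was at 17.7, 13.6 and 16.8 CPM in the wild type and at 6.06, 4.67 and 5.59 CPM in the mutant. All mutant values were below all wild-type values, a 2.94-fold fall (-1.55 ± 0.156, edgeR adjusted p = 1.49e-07). LAMC3 spans 131009082 to 131094473 on chromosome 9. Of its nearest tested protein-coding neighbours, AIF1L at 2.00 kb (0.01) and NUP214 at 31.1 kb (0.07) were not called. The kinase gene ABL1, at 121 kb on the other side, fell (-0.32 ± 0.104, adjusted p = 0.0304).

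LAMB1, the beta chain that pairs with LAMC1 in many laminins, was at 165, 158 and 161 CPM in the wild type and at 107, 119 and 119.6 CPM in the mutant. The groups were well apart, and LAMB1 fell 1.40-fold (-0.49 ± 0.059, edgeR adjusted p = 2.14e-06). LAMB2, the beta chain typical of the glomerulus and the synapse, had 93.3, 70.5 and 93.7 CPM in the wild type and 124, 91.2 and 102 CPM in the mutant. Its groups overlapped and it was not called (0.30 ± 0.131, adjusted p = 0.150). Without mutant replicate 2 LAMB2 was called (0.39, adjusted p = 0.0315). It was also called with no filter beyond 1 count (adjusted p = 3.95e-04) and with the replicate number as a block (4.76e-04). On the log2 scale the LAMB1 to LAMB2 ratio was 0.83, 1.16 and 0.78 in the wild-type libraries and -0.20, 0.38 and 0.22 in the mutant libraries, a difference of -0.79 without overlap (exact permutation p = 0.10, the smallest possible, adjusted p = 0.20).

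LAMA3 encodes an alpha chain of the laminin that anchors epithelia to the basement membrane. It had 10, 4 and 4 counts in the wild type (1.04, 0.509 and 0.504 CPM) and 24, 19 and 27 counts in the mutant (2.74, 2.46 and 2.85 CPM). LAMA3 rose 3.76-fold from this low level (1.91 ± 0.345, edgeR adjusted p = 2.96e-04), with no overlap. LAMB3, the beta chain of that laminin, had 0 counts in all libraries. LAMA5, the most abundant alpha chain here per kb, had 149.7, 109.6 and 144 CPM in the wild type and 179.6, 174 and 148 CPM in the mutant. Its mutant replicate 3 lay below the highest wild-type library, and LAMA5 was not called (0.31 ± 0.116, adjusted p = 0.0968), but it was called without that library (adjusted p = 0.00852) and with no filter beyond 1 count (3.0e-05). LAMA2, the alpha chain of muscle and nerve, and LAMA4, that of vessels, were not called at -0.02 and -0.24. The LAMA4 to LAMA5 ratio differed by -0.55 (exact permutation p = 0.20).

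The fibrillar collagens did not move together: COL5A2 fell, COL1A1 and COL27A1 rose, and COL2A1 was not called. COL5A2 encodes a chain of collagen V, which sets the diameter of collagen I fibrils. COL5A2 was at 28.3, 32.7 and 32.8 CPM in the wild type and at 12.1, 9.85 and 15.8 CPM in the mutant. The highest mutant value was far below the lowest wild-type value, and COL5A2 fell 2.44-fold (-1.29 ± 0.132, edgeR adjusted p = 2.43e-07). It spans 189031896 to 189225312 on chromosome 2. Its nearest tested protein-coding neighbours GULP1 (-0.16) and WDR75 (-0.13), at 436 and 216 kb, were not called. COL3A1, which was not tested, lies nearer than either, at 188974320 to 189012746. It had 9 counts in the wild type and none in the mutant, as described below. COL5A1, the partner chain of COL5A2 in collagen V, had 4 counts in the wild type and none in the mutant.

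COL1A1, a chain of collagen I, rose from 26.97 ± 3.03 to 35.5 ± 4.87 CPM (0.40 ± 0.106, edgeR adjusted p = 0.00962). The call was lost without wild-type replicate 2 (0.31, adjusted p = 0.0552). COL1A2, the other chain of collagen I, had 0 counts in every library. COL27A1, a fibrillar collagen of developing cartilage, rose from 68.3 ± 3.16 to 80.02 ± 5.25 CPM (0.23 ± 0.071, adjusted p = 0.0250). DESeq2 did not call it (adjusted p = 0.0651), nor did edgeR without wild-type replicate 1 (0.0559), wild-type replicate 2 (0.0937), mutant replicate 1 (0.0832) or mutant replicate 2 (0.0723).

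Further fibrillar collagens were near the limit of detection and not tested. COL24A1 had 18, 11 and 7 counts in the wild-type libraries and 0 in each mutant library. Against a floor of 3 counts over the mutant group, and with its wild-type counts taken as exact, it was at least 12.2-fold lower. COL3A1, the reticular fibre collagen, had 3, 5 and 1 counts in the wild type and none in the mutant. On the same floor, with these few wild-type counts taken as exact, COL3A1 was lower by at least 3.06-fold. In an edgeR fit with no filter beyond 1 count, both were called lower (adjusted p = 4.21e-09 and 0.0226). In the authors' deposited table the adjusted p was 1.39e-04 for COL24A1 and 0.0969 for COL3A1.

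FACIT and filament collagens gave a rise and 2 falls, each lost under at least 1 alternative. COL12A1, a FACIT collagen of tendon and stressed tissue, had 0.727, 1.02 and 0.882 CPM in the wild type and 2.74, 1.94 and 1.90 CPM in the mutant. It rose 2.51-fold without overlap (1.33 ± 0.340, edgeR adjusted p = 0.00688), and missed the threshold with DESeq2 (adjusted p = 0.0561). COL9A3, a chain of the cartilage FACIT collagen IX, had 16.7, 8.52 and 13.6 CPM in the wild type and 9.48, 4.67 and 4.54 CPM in the mutant. Wild-type replicate 2 lay below mutant replicate 1, so the groups overlapped, and COL9A3 fell (-1.07 ± 0.323, adjusted p = 0.0461). DESeq2 did not call it (adjusted p = 0.0896), nor did edgeR without wild-type replicate 1 (0.128), wild-type replicate 3 (0.138), mutant replicate 2 (0.110) or mutant replicate 3 (0.0788). COL9A1 had 0.723 ± 0.480 and 1.37 ± 0.494 CPM and was not called, like COL19A1 (-0.46) and the anchoring fibril collagen COL7A1 (-0.58).

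COL6A2, a chain of collagen VI, fell 1.21-fold from 74.05 ± 7.72 to 61.4 ± 5.14 CPM with overlap (-0.27 ± 0.082, edgeR adjusted p = 0.0192). Its call was lost without wild-type replicate 1 (adjusted p = 0.149), mutant replicate 2 (0.0604) or mutant replicate 3 (0.0890). Its partner COL6A1 is described above, and the COL6A1 to COL6A2 ratio was 0.21 higher in the mutant (exact permutation p = 0.10). COL6A3, the chain that completes classical collagen VI, had 0 counts in all libraries. COL25A1, a transmembrane collagen of neurons, was not called (0.02).

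**Figure D4:**
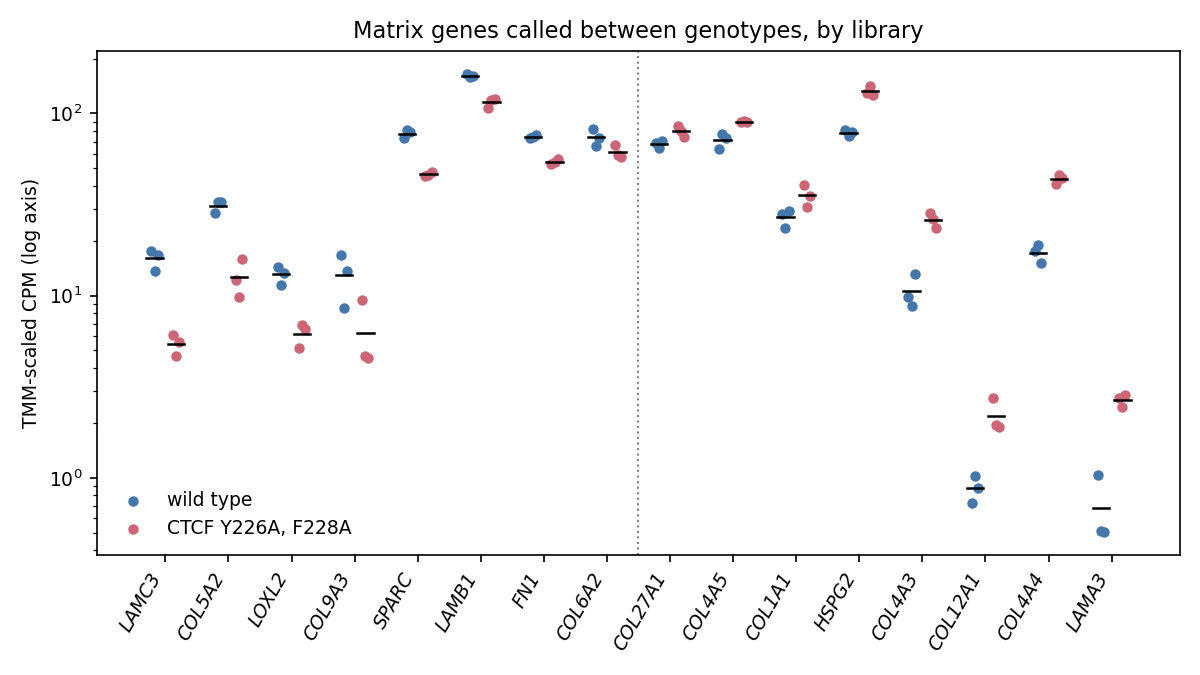
TMM-scaled CPM of the 16 called matrix genes in each library (points, log axis) with the mean of 3 libraries as a line, genes that fell on the left of the dotted line and genes that rose on the right. For COL9A3 and COL6A2 points of the genotypes overlap, and for the other 14 genes they do not.

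Of 4 tested crosslinking enzymes, LOXL2 fell and the others were not called. LOXL2 acts on collagen IV and other matrix proteins. It was at 14.4, 11.4 and 13.4 CPM in the wild type and at 5.14, 6.87 and 6.55 CPM in the mutant. All mutant libraries were lower, and LOXL2 fell 2.13-fold (-1.09 ± 0.157, edgeR adjusted p = 2.28e-05). On chromosome 8, its tested protein-coding neighbours R3HCC1 (0.01) and ENTPD4 (0.04) were not called. LOX, the founding member, had 23.2 ± 3.63 and 22.2 ± 1.42 CPM with overlap (-0.07, adjusted p = 0.709). The LOXL2 to LOX ratio was lower by 1.02 on the log2 scale in the mutant (exact permutation p = 0.10, adjusted p = 0.20), without overlap between genotypes.

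LOXL1, which acts on elastic fibres, and LOXL3 were not called (-0.45 and 0.11). LOXL4 was not tested: it had 4, 8 and 4 counts in the wild type and 0 in each mutant library. Against the same floor, with its wild-type counts taken as exact, LOXL4 was at least 5.44-fold lower. It was called in the fit with no filter beyond 1 count (edgeR adjusted p = 5.18e-04), and its adjusted p in the authors' deposited table was 0.0104. The summed level of the 5 lysyl oxidases ranged from 41.2 to 52.6 CPM in the wild type and from 33.9 to 38.6 CPM in the mutant.

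SPARC, a collagen-binding glycoprotein, and FN1, which encodes fibronectin, both fell. SPARC was at 72.9, 80.8 and 79.1 CPM in the wild type and at 45.6, 46.0 and 47.7 CPM in the mutant. The genotypes were far apart beside their spread, and SPARC fell 1.67-fold (-0.74 ± 0.072, edgeR adjusted p = 1.00e-07). FN1 was at 73.1, 73.9 and 76.2 CPM in the wild type and at 52.8, 54.0 and 56.6 CPM in the mutant, a 1.37-fold fall without overlap (-0.45 ± 0.069, adjusted p = 4.84e-05). The fibrillins, which form microfibrils, were not called. FBN2 was the more abundant, at 223 ± 14.8 and 249.7 ± 18.1 CPM (0.16 ± 0.060, adjusted p = 0.0565). FBN2 was called without mutant replicate 1 (adjusted p = 0.00734) or wild-type replicate 3 (0.0494). It was also called with no filter beyond 1 count (0.0414) and with the replicate number as a block (0.0385). FBN1 changed by 0.07, and the FBN1 to FBN2 ratio differed by -0.09 (exact permutation p = 0.50).

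The 19 genes that did not pass the filter had at most 52 counts over the 6 libraries. Most of them, 16, were collagens. COL23A1, a transmembrane collagen, had 9 wild-type counts and 34 mutant counts, 23 of the latter in mutant replicate 1, and was called in the fit with no filter beyond 1 count (edgeR adjusted p = 0.00534). COL9A2 had 22 and 30 counts. In a further 13 genes a symbol of these families is known only from the identifier, which placed them outside the rule. Of these, 12 had 0 counts in all libraries, and COL26A1 had 39.9 ± 1.43 and 42.9 ± 5.05 CPM and was not called (0.11, adjusted p = 0.435). The authors' deposited table listed 6 of the 55 genes as higher, 9 as lower and 11 without an adjusted p. Of the 16 members called by edgeR, 13 were called in the authors' deposited table, and COL12A1, COL9A3 and COL27A1 were not.

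The promoter letters of the members were searched in RefSeq windows from 250 bases before to 50 after each start, on both strands. The table matched 43 members with 53 windows. The GC box GGGCGG was in 60.4% of them and in 45.0% of all 35116 windows. CCAAT was in 26.4% and 34.6%, TATAAA in 9.43% and 11.5%, and a core of the CTCF motif in 1.89% and 2.41%. Median G and C content was 65.7% in member windows and 58.7% in all windows. Some windows belong to the same gene, and the motifs can overlap each other. These shares are descriptions, and no match says only that the letters are not in the window.

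Related genes that process, bind or cut the matrix were counted in the same fit, in which 21.2% of all tested genes were called. Among 27 tested genes of collagen processing 6 rose and 4 fell (37.0% called), with a median change of 0.02. CREB3L1, a transcription factor of collagen secretion, rose by 0.73 ± 0.174, the procollagen protease gene ADAMTS2 by 0.65 ± 0.121, the ER channel gene TMEM38B by 0.55 ± 0.087 and the collagen uptake receptor gene MRC2 by 0.50 ± 0.084. The falls were those of SERPINH1 (-0.28 ± 0.059), COLGALT1 (-0.22 ± 0.053), P4HA1 (-0.22 ± 0.079) and PLOD1 (-0.18 ± 0.065). The prolyl hydroxylase subunit P4HB, at 400.3 and 395 CPM, was not called. Of 21 matrix receptors 8 rose and 2 fell (47.6% called, median 0.12). CD44, the hyaluronan receptor, fell from 15.1 ± 0.828 to 1.37 ± 0.403 CPM (-3.47 ± 0.202, edgeR adjusted p = 2.88e-11). Its mutant libraries, at 1.03, 1.81 and 1.27 CPM, did not all reach the filter's 1.2 CPM. Only the wild-type group of CD44 met the filter in full. The integrin genes ITGB8 (1.43 ± 0.183), ITGB4 (0.92 ± 0.218) and ITGA1 (0.82 ± 0.191) rose.

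Of 11 tested partners in basement membrane assembly 3 rose and 3 fell (54.5% called, median 0.05). PXDN encodes peroxidasin, which forms the sulfilimine crosslinks of collagen IV. PXDN was at 5.82, 3.82 and 5.42 CPM in the wild type and at 0.686, 0.259 and 0.106 CPM in the mutant, a fall of 3.81 on the log2 scale without overlap (SE 0.392, edgeR adjusted p = 2.09e-07). It passed the filter of 1.2 CPM through the wild-type libraries alone, and so had to be lower in the mutant without overlap. The laminin-binding netrin NTN4 (-2.03 ± 0.181) and FREM2 (-1.56 ± 0.101) fell, while FRAS1, whose protein forms a complex with that of FREM2, rose by 1.39 ± 0.115.

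Elastic fibre and microfibril genes had 4 of 13 higher and 2 lower (46.2% called, median -0.01), with LTBP1, which ties latent TGF-beta to the matrix, at -1.82 ± 0.239, FBN3 at 0.59 ± 0.133, EMILIN3 at 0.36 ± 0.075 and LTBP3 at 0.34 ± 0.077. Matricellular genes had 3 of 10 higher and 3 lower (6 of 10 called, median 0.06). The lists share genes, so their shares are not independent. NTN4 counts as a fall among both the matricellular genes and the basement membrane partners. FBLN1 counts as a rise among both those partners and the elastic fibre genes. NTN1 fell by 2.57 (SE 0.288), NOV rose by 1.77 ± 0.443 from a low level, and THBS1 rose by 0.63 ± 0.179 but was not called by DESeq2 (adjusted p = 0.0705). The mutant libraries of NTN1, at 0.686, 0.907 and 1.90 CPM, did not all reach the filter's 1.2 CPM. Only the wild-type group of NTN1 met the filter in full. NOV, at 0.434 CPM in the wild type and 1.52 CPM in the mutant, passed the filter through the mutant libraries alone and so had to differ. Matrix proteoglycans had 2 of 9 higher and 2 lower (44.4% called, median 0.06), among them VCAN (-1.10 ± 0.201), GPC2 (-0.73 ± 0.129), HAPLN3 (0.43 ± 0.083) and GPC1 (0.39 ± 0.081).

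Of 18 tested proteases and inhibitors 3 rose and 1 fell (median 0.09). The share called, 22.2%, was near the 21.2% of all tested genes, and each of these 4 calls was lost under at least 1 alternative. The urokinase gene PLAU fell (-0.67 ± 0.225, edgeR adjusted p = 0.0376), but not with DESeq2 (adjusted p = 0.141). HPSE, MMP17 and TIMP2 rose by 0.29, 0.28 and 0.22. DESeq2 called neither MMP17 nor TIMP2 (adjusted p = 0.112 and 0.0902), and HPSE lost its call without wild-type replicate 3 (0.0693). Of 16 TGF-beta ligands, receptors and SMADs 18.8% were called, also near the share of all tested genes. The 3 called genes rose: TGFB3 (0.97 ± 0.160), TGFBR2 (0.75 ± 0.110) and SMAD3 (0.28 ± 0.059). The ligand TGFB1 was not called (0.08).

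**Figure D5:**
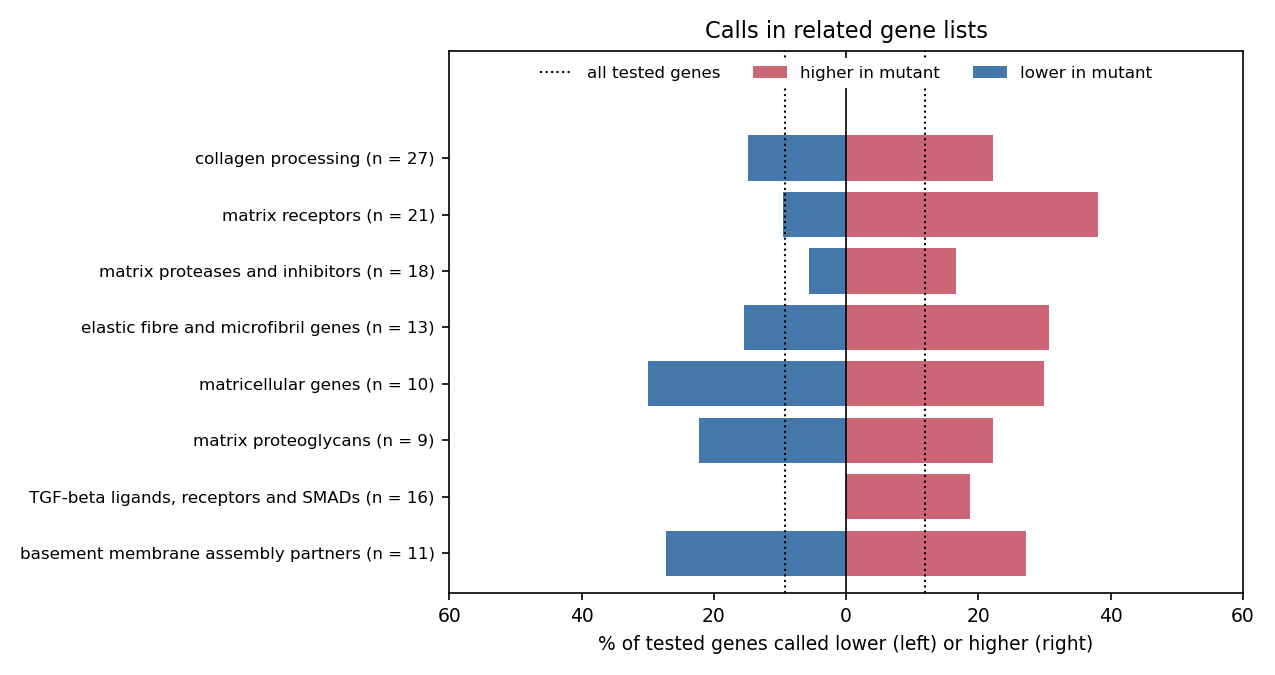
Share of tested genes called lower (left of 0) or higher (right of 0) by edgeR in 8 lists of related genes, in percent, with the number tested in each list and dotted lines at the shares of all tested genes (9.26% and 11.9%). The matrix receptors reach 38.1% higher, and the TGF-beta list has a bar only on the right.

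Markers of cells that make much matrix were checked beside these values. The fibroblast markers DCN, LUM and FAP had 0 counts, while the summed level of all 8 fibroblast markers was 45.8 to 52.5 CPM in the wild type and 66.9 to 74.2 CPM in the mutant. PDGFRA, which rose from 37.2 to 63.3 CPM, made up most of that sum, and TWIST1 fell by 0.85 on the log2 scale. The remaining fibroblast markers had lower means in the mutant. S100A4 was not called (-0.61, edgeR adjusted p = 0.111), and PDGFRB (20 and 5 counts) and THY1 (29 and 16 counts) did not pass the filter. The 5 matched endothelial markers summed to at most 0.317 CPM in any library, with 2 of them at 0. For cartilage, SOX9 and ACAN had at most 0.130 CPM in any library although COL2A1 was high. The cartilage marker COMP was detected, at 5.74 CPM in the wild type and 4.89 CPM in the mutant, and was not called. Of 8 blood markers, PTPRC, GATA1, SPI1 and HBG1 had 0 counts. TAL1 was the only one called, and rose by 1.08, from 31.9 to 67.5 CPM. GATA2 (-0.01) and ITGA2B (-0.23) were not called, and CD34 (4 and 2 counts) did not pass the filter. The summed blood markers, TAL1 included, were 79.6 to 86.3 CPM in the wild type and 108 to 121 CPM in the mutant. Of 6 epithelial markers ESRP1 and EPCAM rose (1.27 and 1.05), KRT8 fell (-0.80), KRT18 was not called (0.18) and 1 was at 0. CDH1 (11 counts and 1) did not pass the filter and was lower in each mutant library. The epithelial markers had sums of 59.7 to 64.1 and 63.4 to 72.8 CPM. Smooth muscle and pericyte markers summed to 6.17 to 8.52 and 8.76 to 10.2 CPM, with ACTA2 called higher (0.84) by edgeR and not by DESeq2 (adjusted p = 0.102). CNN1 (18 and 6 counts) and MYH11 (5 counts and 1) did not pass the filter and were lower in each mutant library. How far these marker changes bear on the matrix genes was not tested.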

How the data were processed

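PolyA RNA of HAP1 cells was sequenced in 3 wild-type and 3 mutant libraries. The deposited count table of the authors holds raw counts for each gene. The submitters' processing notes name build hg19, TopHat2 2.1.1, HTSeq and DESeq2. Tool roles and the strand setting of the counting were not given in the sources. The authors also deposited a DESeq2 table with a mean signal per gene, a log2 fold change with its standard error, a Wald score and p-values. Gene symbols came from that table.

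The 5 rows without a gene (22.4 to 24.3% of counted reads) and 0 sample columns were left out. Counts were analysed with edgeR 4.0.16 in R 4.3.3: filterByExpr by genotype (at least 1.2 CPM in 3 libraries), which kept 14835 of 25665 genes with a count, TMM factors of 0.995 to 1.004, and two-sided robust quasi-likelihood tests with genotype as the only term. P-values were adjusted by Benjamini-Hochberg over all tested genes. Fits were tested on simulated data with the same spread setting for every gene and changes only in well-counted genes. Calls at low counts were not covered by it. Fitted changes carry a prior count of 0.125. For genes with 0 counts in a genotype, folds are bounds against 3 counts over that group. The counting error of the other genotype is not in these bounds. Partner ratios used counts plus 0.5, and principal components log2 of CPM plus 0.5.

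Gene lengths, order and overlaps came from GENCODE v29 (GRCh38), used for position only, since the counts were made on another build. Promoter sequences came from RefSeq (GRCh38.p14). Alternatives were DESeq2 1.42.0, limma-voom 3.58.1, 2 other scalings, no filter, a replicate block and leaving out each library. Named were all called members, library values of those past 2-fold, of those at 0 in a genotype and of the 6 highest per kb, and up to 4 called genes of each list. HSPG2, the remaining collagen IV genes, LAMA5, LAMB2, FN1 and PXDN were given by library after their values were seen. So were the mutant libraries of CD44 and NTN1, and P4HB, TGFB1 and COL23A1 were likewise named then. So were the falls of collagen processing and several uncalled cell markers. The members, lists and tests were chosen with earlier results of these data known. The values of 1 member are not reported here.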

Additional observations from a re-analysis of the deposited data

How the results depend on the processing

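Of the 16 called genes, 11 stayed called in all 12 alternative fits, 5 lost the call in at least 1 fit as given above, and 0 changed direction. Without single libraries, 6 to 9 members were called higher and 6 to 10 lower. DESeq2 gave 6 and 7, limma-voom 8 and 8, and no filter beyond 1 count 12 and 11. With the replicate number as a block, 10 and 9 members and 1959 and 1615 of all genes were called. Same-numbered libraries did not deviate together (r = 0.076, 0.090 and -0.116), so the numbers were not taken as pairs. Without single libraries some uncalled changes crossed 0: COL2A1 ranged from -0.014 to 0.057, LAMA2 from -0.12 to 0.069, LAMC1 from -0.13 to 0.015, LOX from -0.14 to 0.071, LOXL3 from -0.060 to 0.34 and COL25A1 from -0.085 to 0.075, and so did the COL4A3 to COL4A4 ratio (-0.23 to 0.22) and the NID1 to NID2 ratio (-0.041 to 0.043). The cause was not tested. Counts in related lists moved more. Lower collagen processing genes numbered 4, and 2 with DESeq2 or limma-voom. Lower matricellular genes numbered 3, and 6 with no filter. Higher proteases and inhibitors numbered 3, and 1 with DESeq2, and lower ones 1, with 0 to 2 across fits. For lower TGF-beta genes edgeR called 0 (DESeq2 and limma-voom also 0), and 1 with no filter, with the replicate block, without wild-type replicate 3 or without mutant replicate 1. At an unadjusted edgeR p under 0.05, 2 genes of that list, SMAD4 and SMAD6, were lower. Without mutant replicate 1, 5 elastic fibre genes in place of 2 were lower, and without mutant replicate 3, 1 matricellular gene in place of 3 was higher. Lower fibroblast markers numbered 2 in place of 1 without wild-type replicate 2, and the higher smooth muscle marker was lost with DESeq2. At this depth, genes under the 1.2 CPM filter could be bounded but not ranked.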
